A study of Mus musculus with 20 samples.

Results

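Keratins are the intermediate filament proteins of epithelial cells, and 7 of them are described here in 2 sets. Krt8, Krt18, Krt19 and Krt7 are named luminal here, and Krt5, Krt14 and Krt15 basal. The names are labels of the sets, and which cells made each transcript was not tested. All probe sets of the array that carried one of these gene symbols and no other were taken, which gave 9 of 12488: 2 each for Krt18 and Krt19 and 1 for each of the other genes. The tissue was the prostate of mice 10 to 12 weeks old. The source labels give the strain C57/B6 for the sham-treated mice and name no strain for the others. RNA was measured on 20 Affymetrix mouse arrays, 5 for each of 4 treatments. These comprised a sham-treated group, mice castrated 3 days earlier, mice castrated 14 days earlier, and mice that were castrated, given a 15 mg testosterone pellet 14 days later and killed after 3 days with the pellet (the testosterone group). The labels code the sham group as N3 without explaining the code and give no time between sham treatment and collection in words, and 1 sham group served every comparison with intact mice. Comparisons that share a group share its arrays. The labels number no replicates, so the replicate numbers used here follow the order of the deposited samples and only name a mouse. The comparisons ask which transcripts change as the gland regresses without androgen and which change as it regrows.

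A keratin filament is built from pairs of a type I and a type II protein. Krt8 (type II) pairs with Krt18 (type I) in simple and secretory epithelia, Krt7 (type II) and Krt19 (type I) are found with them in many ducts and glands, and Krt5 (type II) pairs with Krt14 or Krt15 (type I) in the basal layer of stratified and pseudostratified epithelia. In the prostate, luminal cells make the secretion and depend on androgen, whereas basal cells line the basement membrane and largely persist after castration.

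The genes of Krt8 and Krt18 are neighbours on mouse chromosome 15, although Krt18 is a type I keratin and the other type I members described here lie on chromosome 11. Promoter sequences from RefSeq (build GRCm38.p6) were found for 5 of the 7 genes and not for Krt19 or Krt15. Those of the luminal members are shown from 150 bases before to 20 bases after the annotated start site. They are given because Krt8 and Krt18 adjoin and encode partners, while Krt8 was called at 14 days against sham and Krt18 was not. The difference between these genes was not tested. Capitals mark matches to TATAAA or GGGCGG on either strand. Krt8 is at chr15:102004323-102004492 on the minus strand, Krt18 at chr15:102028066-102028235 on the plus strand and Krt7 at chr15:101412253-101412422 on the plus strand.
Krt8: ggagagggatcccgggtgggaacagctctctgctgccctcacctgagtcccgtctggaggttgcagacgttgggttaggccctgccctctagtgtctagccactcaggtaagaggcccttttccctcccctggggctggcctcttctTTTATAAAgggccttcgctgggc
Krt18: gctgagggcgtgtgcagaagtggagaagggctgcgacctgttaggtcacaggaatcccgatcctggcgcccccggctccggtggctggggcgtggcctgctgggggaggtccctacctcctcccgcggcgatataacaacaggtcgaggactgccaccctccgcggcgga
Krt7: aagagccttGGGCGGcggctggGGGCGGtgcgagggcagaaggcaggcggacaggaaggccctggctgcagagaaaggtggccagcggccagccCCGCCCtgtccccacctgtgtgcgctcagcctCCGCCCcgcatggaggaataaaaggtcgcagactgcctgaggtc
In the full window of 300 bases (250 before and 50 after the start), TATAAA was found in Krt8, as an overlapping match on each strand, and in 13.6% of all 32851 promoters. GGGCGG was found in Krt7, at 4 places, and in 35.7% of all promoters. AGAACA, the androgen receptor half-site, was found once in Krt18, beyond the stretch shown, and in 19% of all promoters. CCAAT (37.4% of all promoters) and TGANTCA, the AP-1 motif (7.81%), were found in none of the 5. The windows of Krt5 and Krt14 held none of the 5 motifs. These matches describe the letters alone.

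Signals are those of the MAS5 algorithm on a linear scale, and a probe set was called near background when fewer than 5 of the 20 arrays exceeded 190.8, which is the median over every gene probe set and array. The luminal keratins were among the brightest features of the array. The mean signal over the 20 arrays lay at percentile 99.3 of all gene probe sets for Krt19 (92550_at), 98.9 for Krt18 (94270_at), 98.1 for Krt8 (101009_at), 84.7 for the other Krt19 probe set (102121_f_at) and 66.5 for Krt7 (97920_at). The 3 basal keratins all lay near background: Krt5 (94317_at) at percentile 12.8, Krt14 (101041_at) at 18.9 and Krt15 (160852_at) at 3.32, with 0 of 20 arrays above the median of all values for each. The same held for the second Krt18 probe set (162191_at, percentile 12.2), so 5 of the 9 probe sets, covering 4 of the 7 genes, entered the tests. Because probe sets differ in how strongly they bind, these percentiles show which probe sets carried a usable signal and give no order of transcript levels between genes.

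The luminal markers of the tissue were present, in that the prostate secretory protein Pbsn had a mean signal of 16904 in sham mice. Array medians ran from 154.2 to 224.6. On 4 arrays the Gapdh control probe sets gave a raised log2 ratio of 3' to 5' signal (1.82 to 4.50, against -0.53 to -0.08 on the other 16). They came from the 14-day castrated group (replicates 4 and 5) and from the testosterone group (replicates 2 and 5). For the keratin members, calls that changed without them are given both ways. Genes of other cell types also differed between the groups. The summed signal of 8 macrophage and lymphocyte genes ran from 1990 to 2362 in sham mice, 4570 to 5355 at 3 days, 8113 to 15458 at 14 days and 3426 to 5544 in the testosterone group, and that of 8 fibroblast genes from 13461 to 14764, 18376 to 23029, 20644 to 28518 and 18393 to 24344. The sum of 5 seminal vesicle secretion genes ran from 49567 to 71962, 41782 to 58653, 3179 to 32161 and 40479 to 52296. Smooth muscle genes summed to 32553 to 40225, 25139 to 35012, 21464 to 27840 and 45110 to 49670, endothelial genes to 1420 to 2127, 1893 to 2491, 2837 to 3301 and 1761 to 2346, and skeletal muscle genes to 3530 to 14944, 1849 to 4501, 2462 to 19949 and 10776 to 23872. The skeletal muscle sum thus varied widely within groups, and that of smooth muscle was highest in the testosterone group. No measured gene of these lists was at 0 on every array, although Cd3g, Ptprc, Cd3e, Fcer1g, Cd79b and Itgam of the first and Vim of the second lay near background, as did Tek, Kdr and Tie1 of the endothelial list and Myh2 of the skeletal muscle list. The part of tissue makeup in the keratin results was not tested. In RNA of a mixed tissue, more cells of a type and more RNA per cell cannot be told apart.

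**Figure D1:**
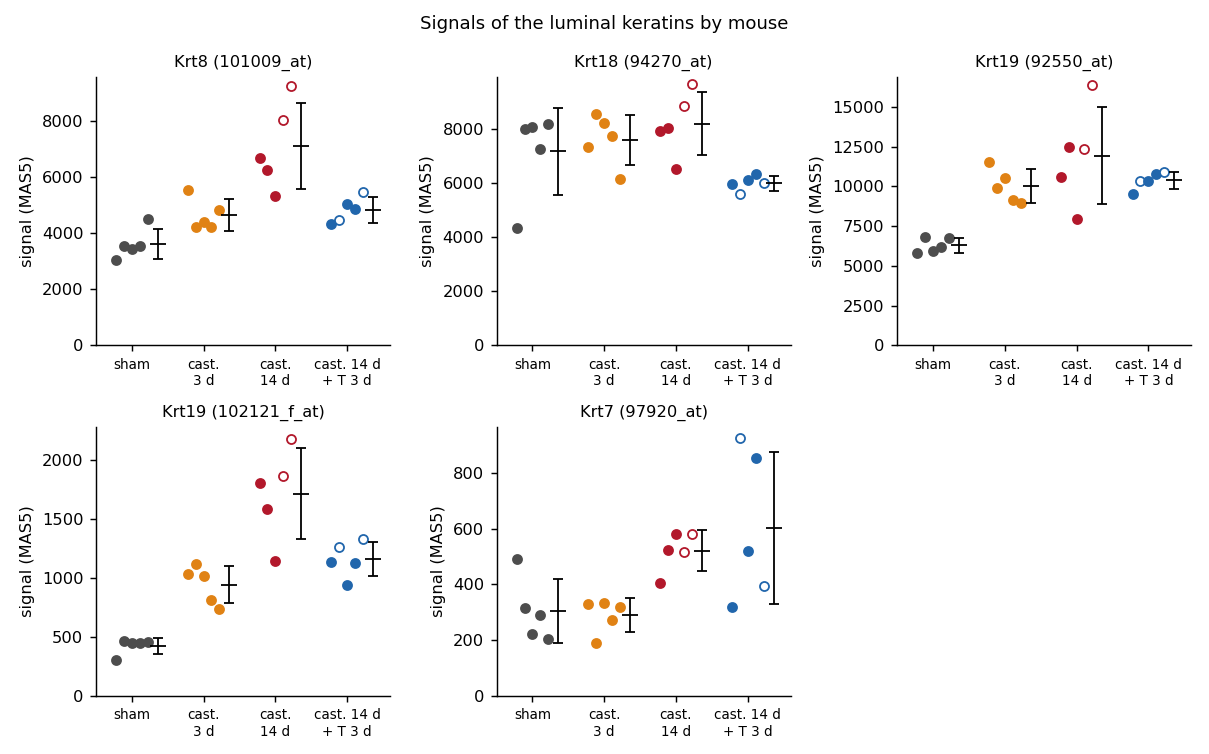
Signal (MAS5, linear scale) of the 5 luminal keratin probe sets in each mouse of the 4 groups, with the mean and SD of 5 mice beside the points; open points are the 4 arrays of high Gapdh 3' to 5' ratio. Krt8 and both Krt19 probe sets are lowest in sham mice and have their highest means at 14 days of castration, whereas the Krt18 groups overlap except for the testosterone group against 14 days.

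Krt19, the small type I keratin of ductal and glandular cells, was higher after castration by both of its probe sets, and it was the member whose rise was already called at 3 days. The brighter probe set measured 5831, 6830, 5936, 6156 and 6761 in the sham mice, 11539, 9900, 10538, 9163 and 8972 at 3 days, 10574, 12476, 7961, 12324 and 16344 at 14 days, and 9534, 10341, 10336, 10800 and 10917 in the testosterone group. Every mouse of the 3 other groups lay above every sham mouse. The log2 change from sham was 0.67 ± 0.13 (SE, n = 5 per group) at 3 days (1.59-fold, limma adjusted p = 0.00253), 0.88 ± 0.13 at 14 days (1.85-fold, limma adjusted p = 2.18e-05) and 0.72 ± 0.13 in the testosterone group (1.65-fold, limma adjusted p = 0.000211). Between 3 and 14 days it changed by 0.22 (95% interval -0.06 to 0.50, limma adjusted p = 0.205), and with testosterone after castration by -0.16 (95% interval -0.45 to 0.12, limma adjusted p = 0.342). The spread at 14 days was wide, with an SD of 3063 on a mean of 11936. Without replicate 3 of that group, its lowest mouse, the change from 3 to 14 days was 0.36 (limma adjusted p = 0.0164) and that with testosterone -0.30 (limma adjusted p = 0.0372).

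The second Krt19 probe set showed the same order of groups in steps that were larger. It measured 301.3, 466.5, 446.4, 450.2 and 458.3 in sham mice, 1029, 1116, 1020, 814.5 and 736.2 at 3 days, 1804, 1584, 1145, 1866 and 2183 at 14 days, and 1139, 1262, 943.8, 1129 and 1326 in the testosterone group. Sham, 3 days and 14 days did not overlap. The log2 change from sham was 1.13 ± 0.16 (SE) at 3 days (2.19-fold, limma adjusted p = 0.000137) and 1.97 ± 0.16 at 14 days (3.91-fold, limma adjusted p = 1.15e-08), and it was still 1.43 ± 0.16 in the testosterone group (2.70-fold, limma adjusted p = 1.02e-06). It rose by 0.84 from 3 to 14 days (limma adjusted p = 0.00053) and fell by 0.54 with testosterone (limma adjusted p = 0.0111). That last call ended when the arrays of high Gapdh ratio were left out (-0.47, limma adjusted p = 0.068) and with centred arrays (-0.34, limma adjusted p = 0.176). The f in its name marks, in Affymetrix naming, probes that are not unique to 1 transcript. Relative to the sham mean, its log2 signal exceeded that of the other Krt19 probe set on the same array by 0.46 ± 0.17 (SD, n = 5) at 3 days, 1.08 ± 0.17 at 14 days and 0.71 ± 0.18 in the testosterone group. Both probe sets thus gave the direction of the changes from sham, and they did not give 1 size.

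Krt8, the type II keratin of simple epithelia, was highest at 14 days of castration. Its signals were 3037, 3531, 3437, 3526 and 4494 in sham mice, 5541, 4211, 4395, 4220 and 4809 at 3 days, 6662, 6261, 5335, 8038 and 9240 at 14 days, and 4319, 4471, 5039, 4839 and 5451 in the testosterone group. All mice at 14 days lay above all sham mice, while the other groups overlapped with their neighbours. The log2 change at 14 days against sham was 0.96 ± 0.14 (SE, n = 5 per group, 1.95-fold, limma adjusted p = 8.5e-06), and it held in all 30 other settings tried. At 3 days the log2 change of 0.37 (95% interval 0.08 to 0.65) did not pass the test across all probe sets (limma adjusted p = 0.0787). It did when the arrays of high Gapdh ratio, none of them from these 2 groups, were left out of the joint fit (limma adjusted p = 0.0304), without sham replicate 5 (log2 change 0.45, limma adjusted p = 0.0338) and without replicate 5 of the 14-day group (limma adjusted p = 0.0494). From 3 to 14 days Krt8 rose by 0.60 ± 0.14 (SE, 1.51-fold, limma adjusted p = 0.00191), and in the testosterone group it was 0.43 ± 0.14 above sham (1.34-fold, limma adjusted p = 0.013). The change from 14 days of castration to testosterone was -0.54 ± 0.14 (1.45-fold lower, limma adjusted p = 0.0031). That call ended when the arrays of high Gapdh ratio were left out (-0.36, limma adjusted p = 0.0573), of which the 2 at 14 days averaged 8639 against 6086 for the other 3 mice.

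Krt18, the type I partner of Krt8, did not pass the test after castration. The bright probe set measured 4344, 8007, 8093, 7250 and 8189 in sham mice, 7337, 8548, 8219, 7745 and 6142 at 3 days, 7924, 8062, 6524, 8851 and 9663 at 14 days, and 5963, 5595, 6115, 6356 and 6013 in the testosterone group. Sham replicate 1 stood far below the other 4 sham mice. The log2 change from sham was 0.11 (95% interval -0.20 to 0.42, limma adjusted p = 0.69) at 3 days, 0.22 (95% interval -0.10 to 0.53, limma adjusted p = 0.23) at 14 days and -0.22 (95% interval -0.53 to 0.09, limma adjusted p = 0.226) in the testosterone group. Without sham replicate 1 the last of these became -0.39 (limma adjusted p = 0.00632), and the change at 14 days became 0.05. Against 14 days of castration the testosterone group was lower by 0.44 on the log2 scale (1.35-fold, limma adjusted p = 0.0227), without overlap of the 5 mice in each. The call ended when the arrays of high Gapdh ratio were left out (-0.28, limma adjusted p = 0.277) and without replicate 4 (-0.41, 0.0504) or replicate 5 (-0.38, 0.062) of the 14-day group. The other Krt18 probe set lay between 8.90 and 36.6 on all arrays and so gave no usable measure.

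Because Krt8 and Krt18 encode partners, their log2 signals were set against each other within each array, with the mean difference in sham mice taken as 0. A scaling of the whole array hardly moves such a difference. It was -0.27 to 0.45 in sham mice, -0.05 to 0.61 at 3 days, 0.60 to 0.90 at 14 days and 0.50 to 0.82 in the testosterone group. The means were 0.26 ± 0.31 (SD, n = 5), 0.74 ± 0.12 and 0.65 ± 0.12 in the 3 later groups. Neither the mice castrated for 14 days nor the testosterone group overlapped with sham, while those at 3 days did. The highest sham value was that of replicate 1, whose Krt18 was low, and the other 4 lay between -0.27 and 0.10. The 3 mice at 14 days with a low Gapdh ratio measured 0.72, 0.60 and 0.68. The relation is a description of 2 probe sets, for which no test was made.

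**Figure D2:**
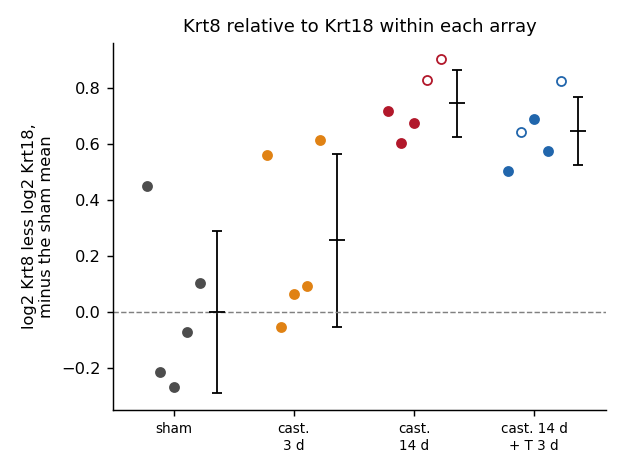
Difference between the log2 signals of Krt8 (101009_at) and Krt18 (94270_at) on each array, less the mean of that difference in sham mice, with mean and SD of 5 mice; open points are the 4 arrays of high Gapdh ratio. All mice at 14 days of castration (0.60 to 0.90) and with testosterone (0.50 to 0.82) lie above all sham mice (-0.27 to 0.45).

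Krt7, a type II keratin of ducts and of transitional epithelium, was higher at 14 days and not at 3 days. Its signals were 491.9, 314.0, 221.8, 290.8 and 202.3 in sham mice, 330.5, 190.7, 333.2, 271.0 and 320.5 at 3 days, 403.5, 522.6, 582.5, 514.8 and 581.4 at 14 days, and 320.3, 927.1, 520.2, 854.0 and 392.6 in the testosterone group. The mice at 14 days lay above all those at 3 days and, but for sham replicate 1, above all sham mice. The log2 change was -0.03 at 3 days against sham (95% interval -0.59 to 0.53, limma adjusted p = 0.956), 0.81 ± 0.27 (SE) at 14 days against sham (1.75-fold, limma adjusted p = 0.0155) and 0.84 ± 0.27 from 3 to 14 days (1.79-fold, limma adjusted p = 0.0176). The last call ended without replicate 2 of the mice castrated for 3 days (0.70, limma adjusted p = 0.0536). In the testosterone group Krt7 was 0.91 ± 0.27 above sham (1.88-fold, limma adjusted p = 0.00805). Against 14 days of castration its change was 0.10 (95% interval -0.46 to 0.66, limma adjusted p = 0.785), and the testosterone group, with mice at 854.0 and 927.1 beside others at 320.3 and 392.6, spanned more than any other group.

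The 5 luminal probe sets that were tested cover 4 genes, since Krt19 counts with 2. At 3 days against sham 2 were called higher, both of Krt19, where limma called 9.84% of all 6913 probe sets higher and 4.46% lower. Groups did not overlap for the same 2 of the 5, against 13.3% of all. Both Krt19 probe sets are also among those called at 14 days and with testosterone against sham. At 14 days against sham 4 were higher, where 28.6% of all were called higher and 24.3% lower, and 3 had no overlap, against 35% of all. From 3 to 14 days 3 were higher (20.2% of all higher, 20.4% lower) and 2 had no overlap (32.4% of all). In the testosterone group against sham 4 were higher (23.5% of all higher, 29.5% lower) and 2 had no overlap (31.4% of all). In these comparisons none of the 5 was called lower. With testosterone after 14 days of castration 3 were called lower, where 26.6% of all were called lower and 18.2% higher, and 1 had no overlap, against 30.7% of all. The count of 3 was 0 when each array was centred on its median (0 at an unadjusted limma p under 0.05) and 0 with the arrays of high Gapdh ratio left out (2 at an unadjusted p under 0.05). With each array centred on its median the log2 changes were -0.34 for Krt8, -0.24 for Krt18 and -0.34 for Krt19 (102121_f_at), at limma adjusted p-values of 0.105, 0.268 and 0.176. The array medians of the testosterone group lay 0.19 below those at 14 days on the log2 scale, and the median change of all probe sets tested was -0.10. In the other comparisons the median change of all probe sets was between -0.09 and 0.04.

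**Figure D3:**
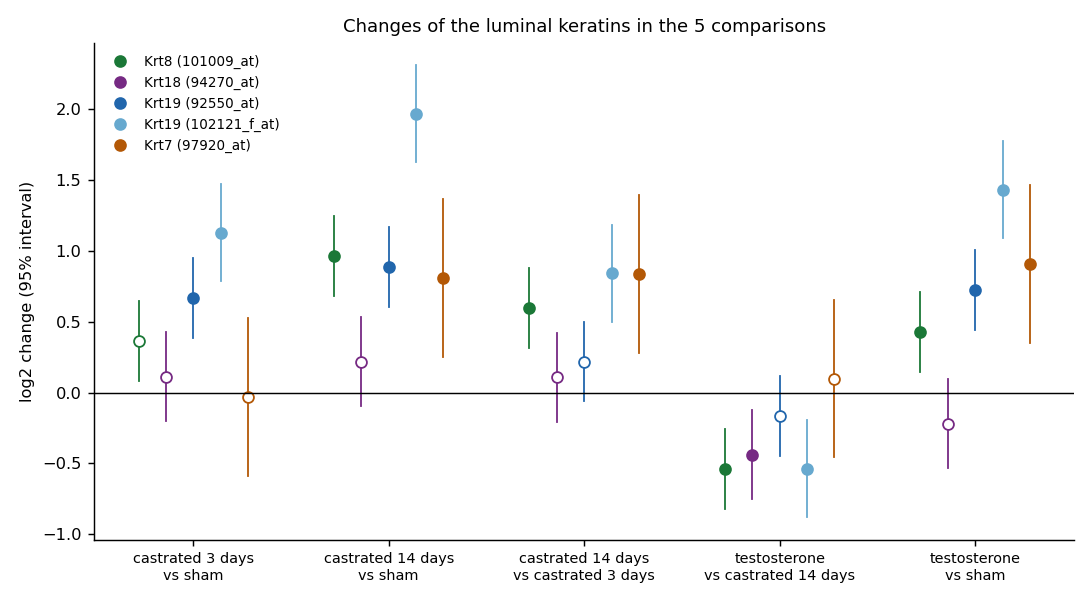
Log2 change with its 95% interval for the 5 luminal keratin probe sets in the 5 comparisons; filled points passed limma's test at a Benjamini-Hochberg adjusted p under 0.05. Changes of Krt8, Krt19 and Krt7 lie above 0 at 14 days and in the testosterone group against sham, those of Krt18 have intervals across 0, and the falls with testosterone were not called after centring of the arrays.

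Krt5 and Krt14, the keratin pair that defines basal cells, gave no usable measure on this array. Krt5 lay between 8.60 and 96.9 over the 20 mice and Krt14 between 5.90 and 109.4. The highest Krt5 value came from a sham mouse and the highest Krt14 value from a mouse castrated for 3 days. Their group means were 35.5 ± 35.1 (SD, n = 5), 20.3 ± 10.7, 17.0 ± 9.4 and 15.5 ± 8.1 for Krt5 and 24.5 ± 4.6, 48.8 ± 37.1, 44.0 ± 23.5 and 17.2 ± 8.6 for Krt14, in the order sham, 3 days, 14 days and testosterone. All groups overlapped with all others for Krt5. Krt15, another basal type I keratin, lay between 4.20 and 37.8, with 7.70 to 37.8 in sham mice and 4.20 to 7.10 in the castrated groups. In the fit without a filter the Krt15 log2 change was -0.66 at 3 days (limma adjusted p = 0.0286) and -0.63 at 14 days (limma adjusted p = 0.0097). These are differences among signals close to the pseudocount of 12.7 that was added before the logarithm, so their size is set by it. No change of Krt5 or Krt14 passed in that fit.

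**Figure D4:**
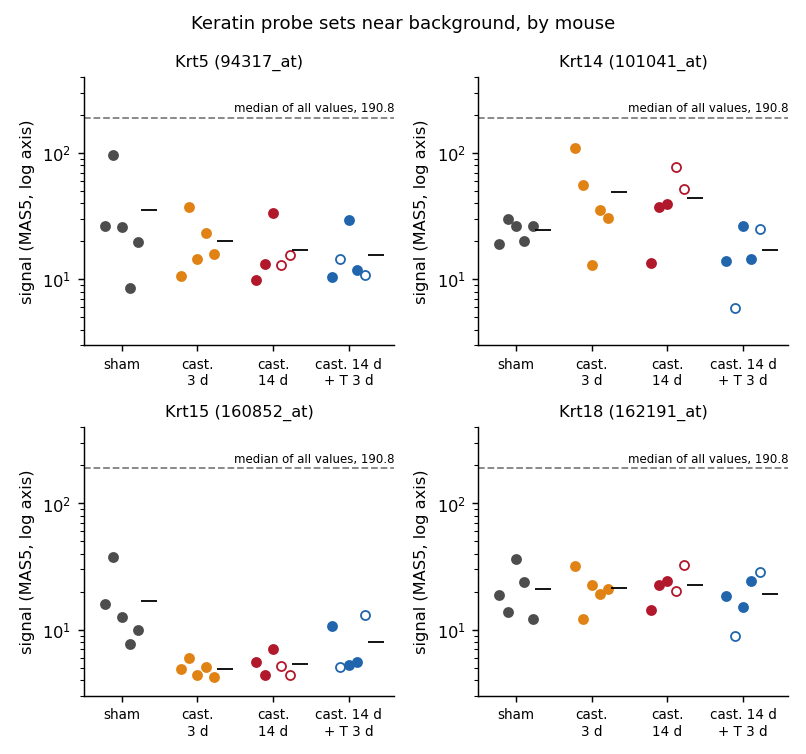
Signal on a log axis of the 4 keratin probe sets near background in each mouse, with group means as bars; open points are the 4 arrays of high Gapdh ratio and the dashed line is the median of all values, 190.8. No mouse of any group reaches the line.

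Other genes of basal cells were measurable and are given from a list chosen for this purpose. The list holds 2 keratins, Krt6a and Krt17. Krt6a, described below, is among those called higher at 14 days and lower with testosterone after castration. Of 18 tested, 8 were higher and 1 lower at 14 days against sham, with a median log2 change of 0.43 against 0.01 over all probe sets, of which 28.6% were called higher and 24.3% lower. Col17a1, a collagen of the hemidesmosome, rose by 1.86 ± 0.19 (SE, limma adjusted p = 1.85e-07), from a mean signal of 160.3 to 601.2. That sham mean lay below the median of all values. Trp63, the p63 transcription factor of basal nuclei, rose by 0.81 ± 0.14 (limma adjusted p = 6.54e-05), from 250.4 to 447.9. Ly6d rose by 1.38 and Lamb3, a laminin chain, by 0.96 (limma adjusted p of 2.7e-06 and 5.69e-06). Itga3, an integrin chain, was the member that fell (-0.94, limma adjusted p = 0.000105). Already at 3 days Lama3 (1.70), Col17a1 (1.33) and Lamb3 (0.49) were higher and Wnt4 lower (-0.94), which made up that count of 3 higher and 1 lower (9.84% and 4.46% of all probe sets). With testosterone after 14 days 6 were lower and 1 higher (26.6% and 18.2% of all), among them Ly6d (-1.44), Col17a1 (-1.01) and Trp63 (-0.49). The Trp63 call ended with centred arrays (-0.29, limma adjusted p = 0.14) and with the arrays of high Gapdh ratio left out (-0.40, limma adjusted p = 0.0753). Without those arrays the counts higher and lower were 6 and 2 at 3 days, 10 and 2 at 14 days, and 2 and 5 with testosterone. That fit filtered the probe sets anew, and the shares of all probe sets above do not belong to it. Whether the list moved more than all probe sets was not tested.

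Of 23 other luminal genes tested, 4 were higher and 5 lower at 14 days against sham, with a median of -0.11, where 28.6% of all probe sets were called higher and 24.3% lower. The shares of the list were thus no larger than those of all probe sets. Those called higher were Cd9 (1.05), Spint1 (0.81), Cldn7 (0.76) and Epcam (0.71), genes of membrane and junction proteins, with limma adjusted p-values of 2.82e-05 or less. Those called lower were Pbsn (-1.80), the transcription factors Spdef (-1.49), Ehf (-1.30) and Hoxb13 (-0.83), and Cldn8 (-0.55), a tight junction protein (limma adjusted p of 0.0123 or less). With testosterone after castration 4 were higher and 9 lower (18.2% and 26.6% of all), with Cldn4 (-1.49) and Epcam (-0.59) lower and Pbsn (1.04) and Ehf (0.75) higher. The 4 higher became 2 without testosterone replicate 1, and the 9 lower became 5 with centred arrays. Against sham the testosterone group had 2 higher and 12 lower (23.5% and 29.5% of all). Epcam (0.56), Spint1 (0.49) and Cldn7 (0.34) were the 3 called higher at 3 days (9.84% of all). The Cldn7 call was lost in 10 of 30 other settings (limma adjusted p up to 0.128), among them leaving out sham replicate 2, 3 or 5 or replicate 1, 2, 3 or 5 of the 3-day group, and that of Spint1 with centred arrays (limma adjusted p = 0.0703), which left 1 call.

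Transcripts of proteins that tie keratin filaments to junctions, taken with those of other intermediate filaments, changed in both directions. Of 14 genes of linkers and other intermediate filaments tested, 6 were higher and 2 lower at 14 days against sham (28.6% and 24.3% of all probe sets). Plec, the plectin that links filaments to hemidesmosomes, rose by 1.90 ± 0.15 (SE, limma adjusted p = 5.89e-09), from 448.0 to 1706, and fell by 1.63 with testosterone (limma adjusted p = 5.38e-08). Dsp, the desmoplakin that anchors keratins at desmosomes, rose by 1.07 ± 0.15 (limma adjusted p = 7.93e-06), from 2438 to 5210, and fell by 0.99 with testosterone. Sfn, a 14-3-3 protein of stratified epithelia that is also on the basal list, rose by 1.41. Jup, plakoglobin (-0.60), and the nuclear lamin Lmna (-0.82) were the 2 that fell. Ppl, periplakin, did not pass at 14 days (0.11, limma adjusted p = 0.449) and fell by 1.18 with testosterone.

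The rest of the keratin family was represented by 41 probe sets of 26 genes, of which 13 probe sets were tested. At 14 days against sham 3 were higher and 3 lower, where 28.6% and 24.3% of all probe sets were, so the counts were near those shares. Krt4, a type II keratin of stratified and transitional epithelia, measured 563.8 to 877.4 in sham mice, 617.4 to 810.7 at 3 days, 1508 to 2272 at 14 days and 725.9 to 1102 with testosterone. All mice at 14 days lay above those of every other group. The log2 change of Krt4 was 1.22 ± 0.14 (SE) against sham (limma adjusted p = 7.1e-07) and -0.97 ± 0.14 with testosterone (limma adjusted p = 1.42e-05). Krt6a, a type II keratin of stressed and proliferating stratified epithelium, measured 219.6 to 386.4, 238.9 to 293.5, 538.5 to 875.1 and 194.7 to 222.8. It rose by 1.24 ± 0.15 (limma adjusted p = 1.03e-06) and fell by 1.78 ± 0.15 with testosterone (limma adjusted p = 1.28e-08). Krt10, a type I keratin of suprabasal cells, measured 104.8 to 119.7, 167.6 to 210.1, 261.5 to 384.1 and 142.3 to 236.2. Both Krt19 probe sets exceeded the median of all values in every mouse. Krt10 exceeded it in no sham mouse, 3 mice at 3 days, 5 at 14 days and 2 with testosterone. It thus passed the filter through the groups where it was higher. In a fit of sham and 3 days alone, or of sham and testosterone alone, it was not tested. Like Krt19 it was called higher at 3 days (0.66, limma adjusted p = 0.00171), at 14 days (1.34, limma adjusted p = 6.73e-08) and, against sham, with testosterone (0.55, limma adjusted p = 0.00152), and it fell by 0.79 with testosterone after castration. The second Krt10 probe set (162121_at) lay between 2.70 and 32.3 on all arrays and gave no usable measure. The members that were lower at 14 days were Krt6b (-0.72), Krt84 (-0.93) and Krt2 (-0.51). For Krt84 no mouse at 14 days or with testosterone exceeded the median of all values. Of the urothelial list, which shares Krt4, Krt13 and Krt20 with the keratins, 3 of 5 measured genes were tested, and their summed signal ran from 980.5 to 1436 in sham mice, 1015 to 1273 at 3 days, 1932 to 2947 at 14 days and 1092 to 1543 with testosterone. Most of that rise was Krt4 itself. Upk2 went from a mean of 217.4 in sham mice to 334.8 at 14 days and Upk3b from 212.4 to 197.4. Upk2 was called higher at 14 days against sham (0.59, limma adjusted p = 0.0277), a call lost in 8 of 30 other settings. The part of urothelial or urethral tissue in these values was not tested.

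**Figure D5:**
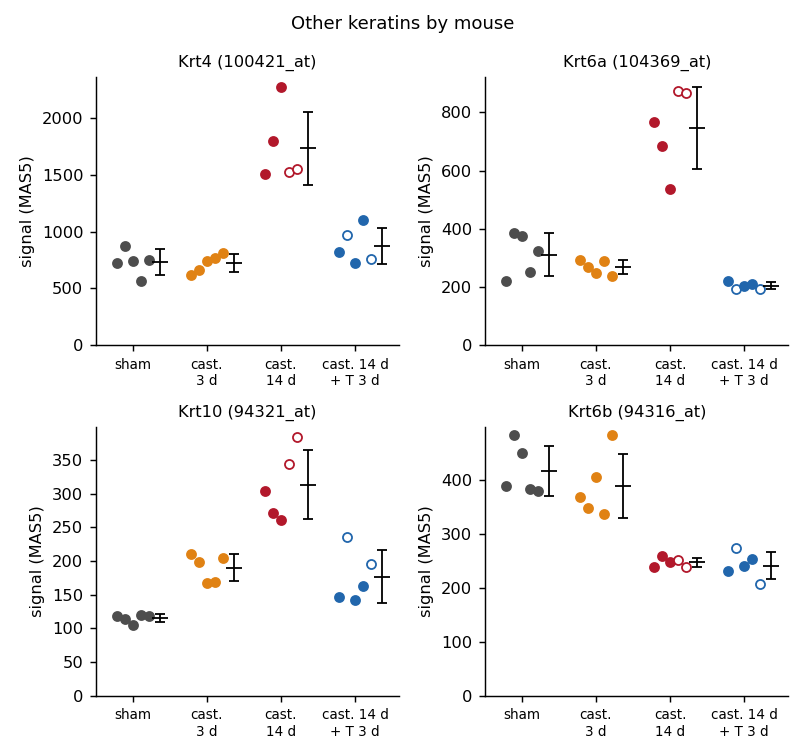
Signal (MAS5, linear scale) of 4 keratins outside the luminal and basal set in each mouse, with mean and SD of 5 mice; open points are the 4 arrays of high Gapdh ratio. Krt4 and Krt6a are high at 14 days of castration alone, Krt10 is above sham in all 3 other groups, and Krt6b is lower at 14 days and with testosterone.

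The genes whose log2 profile over the 20 arrays, each less its own mean, lay closest to that of a luminal keratin were sought among 5355 other genes. Closeness is the root mean square difference, to be read against the keratin's own spread. For Krt8 (own spread 0.39) they were Ctnnb1 (0.16), Nae1 (0.17), Isoc1 (0.17), Anp32a (0.18) and Lima1 (0.19). Ctnnb1, beta-catenin, had log2 changes of 0.97 at 14 days against sham and -0.65 with testosterone. For the brighter Krt19 probe set (own spread 0.39) they were Plscr1 (0.16), Hnrnpk (0.18), Tmsb4x (0.18), Ctsb (0.19) and Rps19 (0.19), and for the other (own spread 0.76) Psme1 (0.24), Mrc1 (0.28), Cd68 (0.30), Psmb8 (0.30) and Gja1 (0.31). Mrc1 and Cd68 are macrophage genes. The summed signal of macrophage and lymphocyte genes given above, which includes Cd68, was also highest at 14 days. The median of that sum was 4833 at 3 days and 4350 in the testosterone group. Means in the same 2 groups were 943.0 and 1160 for this Krt19 probe set, 219.1 and 324.9 for Mrc1, and 437.1 and 437.6 for Cd68. The part of these cells was not tested. For Krt18 (own spread 0.27) the closest were Tmem106c (0.16), Gpank1, Pum2, Tax1bp1 and Grb7 (all 0.18), and for Krt7 (own spread 0.60) Eloc (0.30), Psmd14 (0.33), Rgs2, Slc25a4 and S100a6 (all 0.34). For Krt18 and Krt7 the distances were large beside the keratin's own spread.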

How the data were processed

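The deposited values are intensities, 1 probe set signal per array on a linear scale, made by the authors with MAS5 version 5.0 per the submitters' processing notes. Trimmed means (2% off either end) of 500.2 to 500.3 on all arrays pointed to scaling before deposit. Labels named no batches or pairs, and array numbers followed the groups, so batch and treatment cannot be told apart. The number of arrays limits the precision.

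Gene symbols came from GEO's annotation of the array: of 12422 probe sets beside 66 controls, 10833 had 1 symbol, 396 several and 1193 none. The scale was log2 of signal and pseudocount, 12.7 (the 10th percentile), summed. Probe sets above 190.8 on at least 5 arrays were tested (6913) in 1 limma 3.58.1 model of the 4 groups under R 4.3.3, two-sided, with Benjamini-Hochberg adjustment over all 6913 and a threshold of 0.05. The fit was tested on simulated data. The members, gene lists and tests were chosen with earlier results of these data known. Each gene of a list was taken by its brightest probe set. Named genes were all members, keratins that were tested, up to 4 called genes per list and comparison, of which a selection is given, and the 5 closest profiles; Trp63, Itga3, Hoxb13, Cldn8 and Jup were named after their values were seen. Krtcap2 and Krtdap are no keratins and were left out. Whether the mice of a group shared litters or cages was not stated.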

Additional observations from a re-analysis of the deposited data

Results flagged for a closer look

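In 52 groups of 5 mice, 3 held a mouse whose distance from the nearest other took up most of the group's range on the log2 scale, where chance alone gives about 1 in 20 groups. Sham replicate 1 had a Krt18 (94270_at) signal of 4344, against 7250 to 8189 in the other 4 sham mice. The same mouse had a Krt19 (102121_f_at) signal of 301.3, against 446.4 to 466.5. Replicate 3 of the testosterone group had a Krt5 signal of 29.8, against 10.5 to 14.5, all near background.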

How the results depend on the processing

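The results were recomputed in 30 other settings, 1 of which, leaving out the 4 arrays of high Gapdh ratio, was chosen after seeing the data. Of 16 calls of the luminal probe sets, 12 kept their direction and their side of the threshold in all 30, and none changed direction in any. The number of probe sets called with testosterone after castration fell from 3 to 0 with centred arrays and to 0 without the 4 arrays, and was 2 to 4 when 1 array was left out. The counts of these probe sets called in the other comparisons stayed within 1.5 times their value, and quantile normalization gave 4 calls in that comparison. Signs turned for changes that had not been called: Krt19 (92550_at) with testosterone after castration (0.032 with centred arrays and 0.0064 without the 4 arrays), Krt7 at 3 days against sham (0.040 with array weights, and -0.15 to 0.16 when 1 array was left out), Krt18 at 3 days against sham (-0.061 to 0.18 when 1 array was left out) and from 3 to 14 days (-0.015 without the 4 arrays), and Krt7 with testosterone after castration (-0.083 to 0.29 when 1 array was left out). The cause was not tested. Quantile normalization also called Krt8 at 3 days (0.45, limma adjusted p = 0.00889) and Krt18 at 14 days (0.38, limma adjusted p = 0.0247) higher than in sham mice. Of 94 calls of other named genes, 81 kept direction and side in all settings in which they were tested and none turned. Counts of the other lists moved more: over all settings, basal genes at 3 days were 3 to 6 higher and 1 to 2 lower, those lower at 14 days 1 to 2, and those higher with testosterone after castration 1 to 3, while luminal genes higher at 3 days were 1 to 3. The shares of all probe sets called in the other settings are not given beside these counts. No paired analysis was possible because the labels name no pairs. Signals near background limit Krt5, Krt14 and Krt15.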

Other observations

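Keratin probe sets that the filter on low signals left out went in both directions. In some, every mouse at 14 days of castration lay below every sham mouse. Among these were Krt72 (95528_at, 41.4 to 139.6 against 170.5 to 253.7) and Krt35 (98998_r_at, 111.9 to 139.8 against 154.4 to 217.8). Some others were far higher at 14 days of castration than in any other group. The second Krt6a probe set (104370_s_at) measured 190.3 to 312.8 at 14 days, against 31.9 to 68.8 in sham mice, 34.5 to 39.4 at 3 days and 33.4 to 86.9 with testosterone. In the limma fit without a filter its log2 change against sham was 2.23 (adjusted p = 4.34e-08), in the direction of the Krt6a probe set that was tested. Krt17, a type I keratin of basal and appendage cells, measured 105.6 to 344.4 on probe set 92862_f_at at 14 days, against 19.3 to 60.3 in sham mice, with a log2 change of 2.11 (limma adjusted p = 3.94e-05). A second Krt17 probe set (92861_i_at) changed by 0.51 (limma adjusted p = 0.0473), while the Krt17 probe set that passed the filter (161496_r_at) had mean signals of 221.1 and 161.0 and was not called (limma adjusted p = 0.119). The 3 probe sets of this gene did not agree on a direction.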
